A study of Mus musculus with 6 samples.

Results

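The voltage-gated calcium channel subunits described here are the probe sets annotated to exactly 1 of 10 genes: the alpha1 genes Cacna1a, Cacna1b, Cacna1c, Cacna1d, Cacna1e, Cacna1g and Cacna1h, and the beta genes Cacnb1, Cacnb3 and Cacnb4. A probe set is the group of short array probes that reads 1 transcript or a few related ones. There were 24 such probe sets for 9 of the 10 genes, 17 for alpha1 and 7 for beta, among 45037 probe sets and 18193 named genes tested. No probe set named for Cacnb3 was analysed here.

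The 6 Affymetrix arrays held RNA of NSP cells, a short form that the labels do not spell out, grown from dissected mouse brains at E12.5. One group received a lentivirus with an shRNA against REST (3 arrays) and the other a lentivirus with a control shRNA, written CTL in the labels (3 arrays), and RNA was taken 6 days later. In both groups the confluent cells were dissociated and split before an overnight infection, so no group was left uninfected. The labels name neither the strain nor the hairpin sequences, and they do not say whether the arrays of a group came from separate cultures, so the p-values measure the spread between these arrays, which can be technical. REST represses many neuronal genes outside neurons through a DNA element known as RE1, and the comparison asks which transcripts differ when REST is targeted.

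Voltage-gated calcium channels let calcium into a cell when its membrane depolarises. The pore is a single large alpha1 subunit, which decides the channel type, and the beta, alpha2delta and gamma subunits are auxiliary. In neurons the P/Q-, N- and R-type channels feed transmitter release, the L-type channels couple activity to gene expression and firing, and the T-type channels open near rest and support burst firing. Beta subunits bind the linker between the first and second repeats of L-, P/Q-, N- and R-type alpha1 subunits and help bring them to the surface.

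Rest itself read lower in the REST shRNA arrays. Its probe set with the smallest p, 1425564_at, read 4.47, 4.50 and 4.47 on the log2 scale in REST shRNA arrays 1, 2 and 3, against 5.45, 5.34 and 5.05 in the control shRNA arrays, 57.3% of control. The other 3 probe sets of Rest read 62.5% to 71.5% of control (limma, unadjusted p = 0.0182 to 0.0323), and none of the 4 passed the adjusted threshold over all probe sets (limma adjusted p = 1.00). All 4 had every REST shRNA array below every control array, for which the exact two-sided permutation test over arrays gave 0.1, the smallest p that 3 against 3 arrays allow.

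Marker genes of several cell types read above background. All 12 neural progenitor, 14 neuron and 10 astrocyte marker genes had a probe set above the highest bacterial control signal, 3.24, used here as a mark of background. So did 9 of 10 oligodendrocyte lineage, 10 of 14 muscle and 5 of 8 mesenchymal marker genes. Of 6 endothelial and 6 microglial marker genes, 1 and 2 did. Over the whole array 32251 of 45037 probe sets had a mean above this mark, so passing it does not name the cells present. In RNA from mixed cells, fewer cells of a type and less RNA per cell cannot be told apart. REST shRNA array 2 stood apart: the median difference of 34 astrocyte probe sets was -0.02, -1.20 and -0.05 for replicate numbers 1, 2 and 3, and that of 28 oligodendrocyte lineage probe sets was 0.67, -0.80 and 0.63. The mean astrocyte level ranged from 7.32 to 8.92 in REST shRNA arrays and from 8.62 to 8.87 in control shRNA arrays.

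Differences below are log2 signals, REST shRNA minus control shRNA, from a limma fit over all 45037 probe sets. With Benjamini-Hochberg adjustment over all of them, limma called 0 probe sets higher (0% of those tested) and 0 lower (0%) at an adjusted p under 0.05, and therefore 0 members. At an unadjusted p under 0.05, 1.54% of all probe sets were higher and 1.93% lower (692 and 868), a split that turned to 899 higher and 675 lower with each array centred on its median. Of the 24 member probe sets 3 were higher at that mark and 0 lower, and all 3 belong to Cacna1b. With REST shRNA array 2 left out, 4 members were higher at that mark, as were 1434 of all 45037 probe sets. A positive difference was found for 21 of the 24, against 52.6% of all probe sets, with a median of 0.25 against 0.01 over all. The member median was 0.14 when REST shRNA array 3 was left out and 0.14 when the pair numbered 1 was. Without the 4 probe sets of Cacna1b the count was 17 of 20 and the median 0.13. Within replicate numbers 1, 2 and 3 the member median was 0.41, 0.001 and 0.23. Without Cacna1b these medians were 0.35, -0.10 and 0.14, so the shift was not seen in number 2. Probe sets of 1 gene read the same RNA and are not independent.

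**Figure D1:**
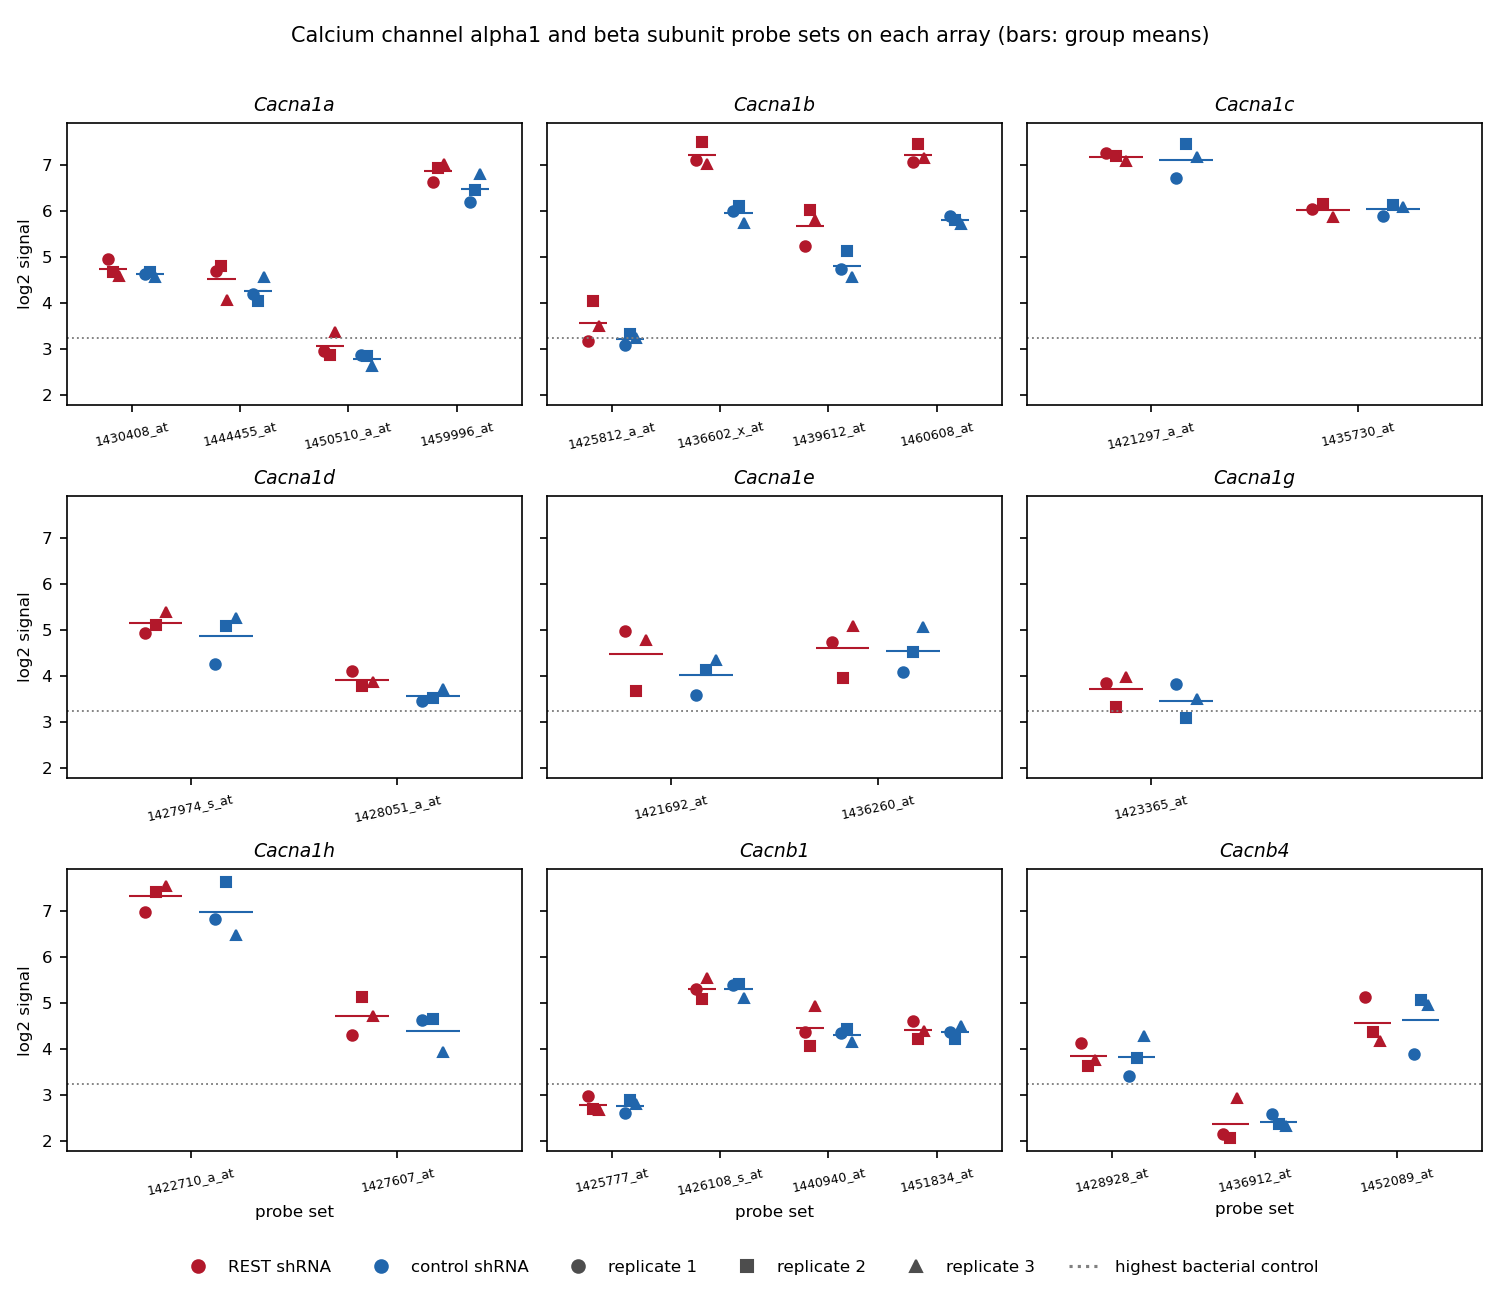
Log2 signal of the 24 member probe sets, 1 panel per gene, with REST shRNA arrays (red) left of control shRNA arrays (blue), marker shape for the replicate number, bars for group means and a dotted line at the highest bacterial control signal, 3.24. The groups stand apart at 3 of the 4 Cacna1b probe sets and at Cacna1d 1428051_a_at, and overlap at the other 20.

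Cacna1b encodes the alpha1 subunit of N-type channels, which trigger transmitter release at many synapses. It was the member with the largest differences. Its probe set 1460608_at read 7.06, 7.46 and 7.16 in REST shRNA arrays 1, 2 and 3, against 5.88, 5.80 and 5.72 in the control shRNA arrays. Every REST shRNA array lay above every control array by over 1 log2 unit. The mean was 7.22 ± 0.21 in REST shRNA arrays and 5.80 ± 0.08 in control shRNA arrays (SD, n = 3 each), and the level with REST shRNA was 2.68-fold that of control. The difference was 1.42 (95% interval 1.03 to 1.82, limma, unadjusted p = 6.51e-05), rank 2 of all probe sets by p and rank 47 among the upward differences. It missed the adjusted threshold (limma adjusted p = 0.922 over all probe sets).

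A further pair of Cacna1b probe sets pointed the same way. Probe set 1436602_x_at, whose suffix marks probes that can match other transcripts, read 7.11, 7.50 and 7.03 in REST shRNA arrays 1, 2 and 3, against 5.99, 6.10 and 5.75 in the control shRNA arrays, a difference of 1.27 (95% interval 0.81 to 1.73, limma adjusted p = 0.922). Probe set 1439612_at read 5.23, 6.01 and 5.80 in REST shRNA arrays 1, 2 and 3, against 4.74, 5.12 and 4.57 in the control shRNA arrays, a difference of 0.87 (95% interval 0.26 to 1.48, limma unadjusted p = 0.0116, adjusted p = 1.00). At both probe sets all REST shRNA arrays were above all control arrays. The first of them followed 1460608_at closely over the 6 arrays (Pearson r = 0.99, a description over arrays of 2 groups).

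The fourth Cacna1b probe set, 1425812_a_at, was dim. It read 3.18, 4.05 and 3.49 in REST shRNA arrays 1, 2 and 3, against 3.07, 3.32 and 3.24 in the control shRNA arrays, with 4 of the 6 arrays above the bacterial mark. The groups overlapped and the difference was 0.36 (95% interval -0.22 to 0.93). The exact two-sided permutation test over arrays gave 0.3 for it and 0.1, the smallest possible p, for each of the other 3 Cacna1b probe sets.

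The Cacna1b difference was present within every replicate number. At 1460608_at it was 1.18, 1.65 and 1.44 for numbers 1, 2 and 3, and at 1436602_x_at 1.12, 1.40 and 1.28. At 1439612_at it was 0.49, 0.89 and 1.23. All 4 Cacna1b probe sets were higher in all 3 pairs, as were 9 of the 24 members and 12.2% of all probe sets. The count of members lower in all 3 pairs was 0, against 11% of all probe sets. Without REST shRNA array 2 the differences were 1.31 at 1460608_at, 1.12 at 1436602_x_at and 0.71 at 1439612_at, while the dim 1425812_a_at was at 0.12, against 0.36 with all arrays. Without both arrays numbered 3 the difference at 1439612_at was 0.69 (limma unadjusted p = 0.0940), which ended its place under 0.05.

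**Figure D2:**
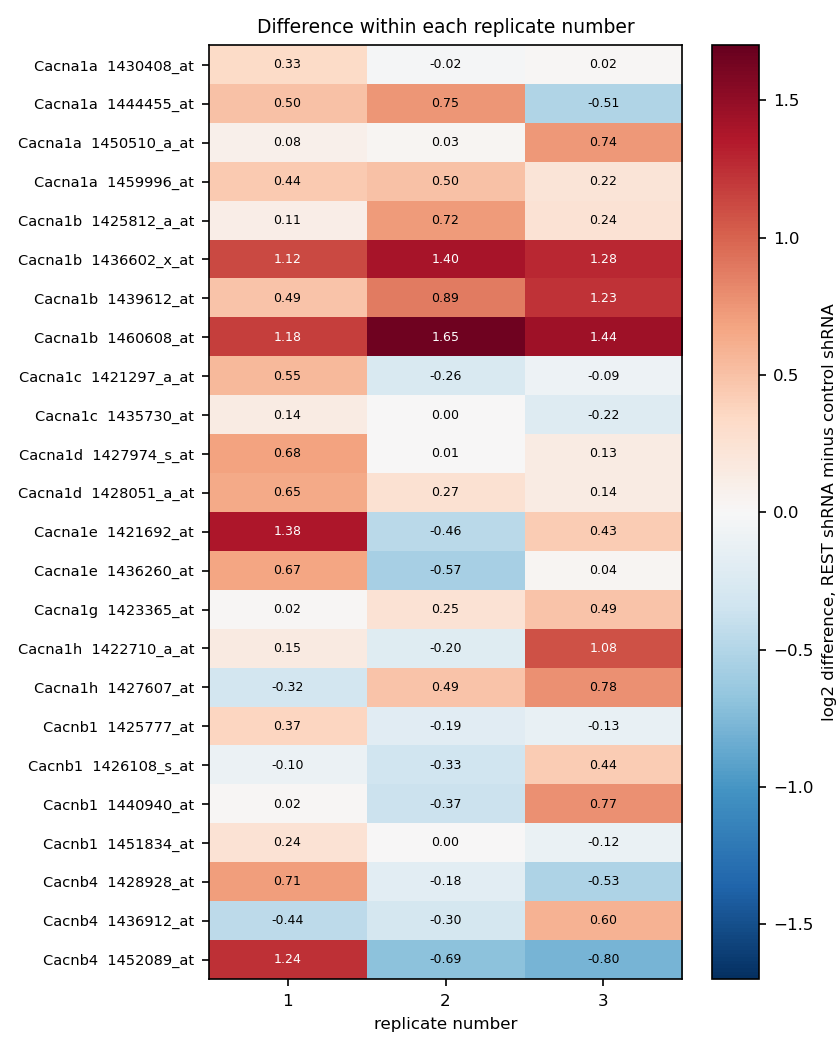
Difference in log2 signal, REST shRNA minus control shRNA, within each replicate number (columns) for the 24 member probe sets (rows), red for higher and blue for lower with REST shRNA. The Cacna1b rows are red in every column, at up to 1.65. All rows of Cacna1c, Cacna1e, Cacna1h, Cacnb1 and Cacnb4 change sign between columns, as do Cacna1a 1430408_at and 1444455_at.

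The median difference of the neuron markers was above 0 in each replicate number and close to 0 in number 2. Of 33 neuron probe sets 23 had a positive difference and the median was 0.46. At a limma unadjusted p under 0.05, 9 were higher and 1 lower, against 1.54% and 1.93% of all probe sets. The groups stood apart upward at 11 and downward at 1, against 4.35% and 3.9% of all probe sets. Within replicate numbers 1, 2 and 3 the neuron median was 0.63, 0.07 and 0.70. Cacna1b 1460608_at differed most in number 2, by 1.65, and Cacna1b 1439612_at most in number 3, by 1.23. Neuron probe sets varied in this. Nefl 1426255_at (1.04, 2.89 and 1.64) and Gap43 1423537_at (0.95, 1.30 and 1.14) differed most in number 2. Stmn4 1418105_at (2.40, 0.64 and 1.29) and Tubb3 1415978_at (0.83, -0.66 and 1.15) were lowest there. The mean log2 level of the neuron list ranged from 7.13 to 7.78 in REST shRNA arrays and from 6.88 to 7.26 in control shRNA arrays. The list's leading probe sets by p were of Crmp1, a collapsin response mediator, at 0.87, and of Stmn4, a stathmin, at 1.45. The other 10 of the 33 had a negative difference. Among these were Map2 1440699_at at -0.66, with every REST shRNA array below every control array, and Elavl4 1452894_at at -0.49. The part of neuron content in the Cacna1b difference was not tested.

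**Figure D3:**
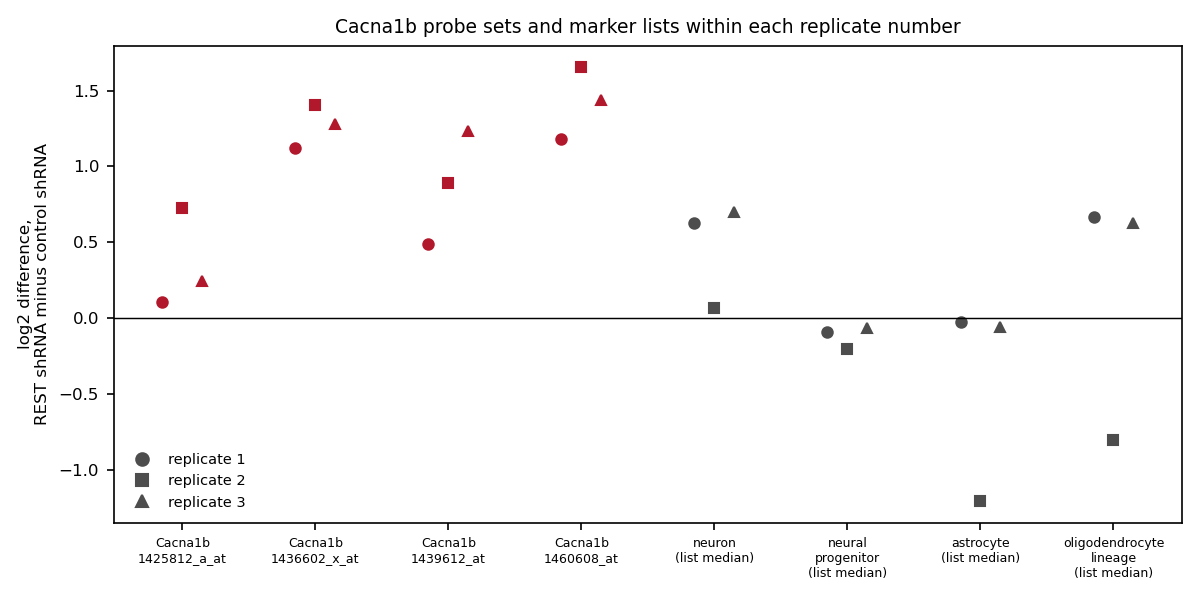
Difference in log2 signal, REST shRNA minus control shRNA, within each replicate number (marker shape) for the 4 Cacna1b probe sets (red) and as the median over probe sets of 4 marker lists (grey). In number 2 the neuron median was 0.07, the astrocyte median -1.20 and Cacna1b 1460608_at 1.65. Cacna1b 1439612_at was highest in number 3, at 1.23.

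REST binds RE1 elements in and around many neuronal genes. The RefSeq promoter windows (250 bases before to 50 after a start, build GRCm38.p6) were searched for 2 exact words of the RE1 consensus, CAGCACC from its left part and GGACAG from its right part, on both strands. Windows were found for 7 of the 10 genes, Cacna1b, Cacna1c, Cacna1d, Cacna1e, Cacnb1, Cacnb3 and Cacnb4, 14 in all. The left word was in 0 of the 14, against 7.14% of 32851 windows of all genes, and the right word in 2 of the 14, of Cacnb1 and Cacnb3, against 22.2%. The Cacna1b window, chr2:24763103-24763402 on the minus strand, is shown because the results turn on this gene, and 1 Cacnb1 window, chr11:98022578-98022877 on the minus strand, because it holds the right word, in capitals. Both are written 5′ to 3′. A match is a description of letters and no match says only that these letters are not in the window.
Cacna1b: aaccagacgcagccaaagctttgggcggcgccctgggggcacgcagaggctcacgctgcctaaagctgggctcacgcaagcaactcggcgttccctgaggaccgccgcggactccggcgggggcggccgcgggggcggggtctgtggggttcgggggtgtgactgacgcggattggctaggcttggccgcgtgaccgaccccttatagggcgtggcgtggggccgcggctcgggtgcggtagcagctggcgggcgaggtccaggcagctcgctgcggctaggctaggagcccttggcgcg
Cacnb1: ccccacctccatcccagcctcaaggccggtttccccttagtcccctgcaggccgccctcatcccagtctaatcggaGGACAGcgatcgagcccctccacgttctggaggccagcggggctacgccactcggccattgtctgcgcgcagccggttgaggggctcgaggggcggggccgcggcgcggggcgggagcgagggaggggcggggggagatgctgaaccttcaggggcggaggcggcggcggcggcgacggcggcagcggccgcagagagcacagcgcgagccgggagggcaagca

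Cacna1a and Cacna1e encode the alpha1 subunits of P/Q- and R-type channels, the other channels of the family that serve transmitter release. The Cacna1a probe set with the smallest p, 1459996_at, read 6.63, 6.94 and 7.02 in REST shRNA arrays 1, 2 and 3, against 6.19, 6.44 and 6.79 in the control shRNA arrays. It was higher within each replicate number but the groups overlapped, with a difference of 0.39 (95% interval -0.11 to 0.88). The other 3 Cacna1a probe sets differed by 0.11 to 0.28. Among them 1444455_at was 0.50 and 0.75 higher in numbers 1 and 2 and had a difference of -0.51 in number 3, and 1450510_a_at was above the bacterial mark on 1 of 6 arrays.

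Cacna1e varied with the replicate number. Probe set 1421692_at read 4.97, 3.68 and 4.78 in REST shRNA arrays 1, 2 and 3, against 3.59, 4.13 and 4.35 in the control shRNA arrays. REST shRNA array 2 was the lowest but 1 of the 6 arrays, and the pair differences were 1.38, -0.46 and 0.43. The difference was 0.45 (95% interval -0.44 to 1.35). It was 0.85 when REST shRNA array 2 was left out, and -0.012 when the pair numbered 1 was. The other Cacna1e probe set, 1436260_at, read 4.74, 3.95 and 5.10 in REST shRNA arrays, against 4.08, 4.52 and 5.06 in the control shRNA arrays. Its pair differences, 0.67, -0.57 and 0.04, had the same order, and its difference was 0.05. Astrocyte and oligodendrocyte lineage markers were also lowest in number 2, and their part in these values was not tested.

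Cacna1c and Cacna1d encode the alpha1 subunits of L-type channels. Cacna1c 1421297_a_at read 7.25, 7.20 and 7.09 in REST shRNA arrays 1, 2 and 3, against 6.70, 7.46 and 7.18 in the control shRNA arrays. The groups overlapped and the difference was 0.07 (95% interval -0.45 to 0.59). Its other probe set, 1435730_at, differed by -0.03 (95% interval -0.40 to 0.35), a sign that turned with each array centred on its median. Both intervals reach past 0.3 in each direction, so moderate differences were not detectable with 3 arrays per group.

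For Cacna1d, probe set 1428051_a_at read 4.11, 3.79 and 3.86 in REST shRNA arrays 1, 2 and 3, against 3.46, 3.53 and 3.72 in the control shRNA arrays. Every REST shRNA array lay above every control array, by little, and the difference was 0.35 (95% interval -0.04 to 0.74, limma unadjusted p = 0.0711). With it 4 of the 24 members had REST shRNA arrays that were all higher, against 4.35% of all probe sets, and 0 had them all lower, against 3.9%. The other Cacna1d probe set, 1427974_s_at, read 4.94, 5.10 and 5.40 in REST shRNA arrays, against 4.26, 5.10 and 5.26 in the control shRNA arrays. It differed by 0.68, 0.01 and 0.13 in replicate numbers 1, 2 and 3.

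Cacna1g and Cacna1h encode the alpha1 subunits of T-type channels, which do not need a beta subunit to conduct. Cacna1h 1422710_a_at read 6.99, 7.43 and 7.55 in REST shRNA arrays 1, 2 and 3, against 6.83, 7.63 and 6.48 in the control shRNA arrays. The control arrays spanned more than the REST shRNA arrays did, and the groups overlapped. The difference was 0.34 (95% interval -0.42 to 1.10), with pair differences of 0.15, -0.20 and 1.08. The other Cacna1h probe set, 1427607_at, read 4.31, 5.13 and 4.71 in REST shRNA arrays, against 4.63, 4.64 and 3.93 in the control shRNA arrays, and differed by 0.32. That value was 0.11 with REST shRNA array 2 left out, 0.083 with control array 3 left out and 0.015 with array weights. In both probe sets control array 3 was the lowest of the 6, and they correlated over the arrays (Pearson r = 0.757, a description). The single Cacna1g probe set, 1423365_at, was above the bacterial mark on 5 of 6 arrays, at 3.72 ± 0.35 in REST shRNA arrays and 3.47 ± 0.38 in control shRNA arrays (SD, n = 3 each). Its pair differences were 0.02, 0.25 and 0.49, all positive, with groups that overlapped.

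**Figure D4:**
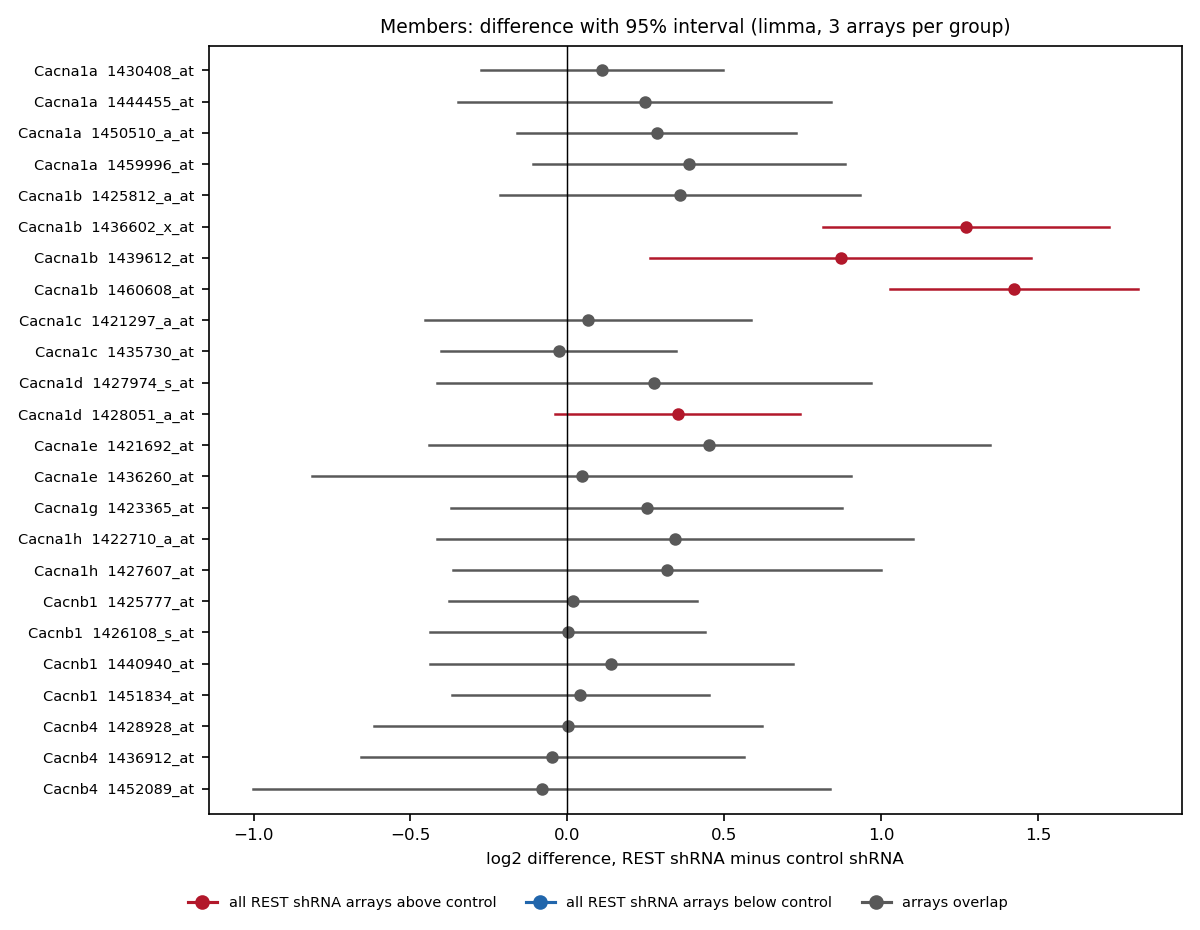
Difference in log2 signal, REST shRNA minus control shRNA, with its 95% interval from limma for each of the 24 member probe sets, red where all 3 REST shRNA arrays were above all 3 control arrays. The intervals of 3 Cacna1b probe sets lie above 0 (lowest bound 0.26), and the other 21 cross it.

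The beta genes gave no common direction. Median differences of their 7 probe sets were 0.24, -0.30 and -0.12 in replicate numbers 1, 2 and 3, and 0.00 over the groups. The groups stood apart at 0 of the 7, against 4.35% of all probe sets apart upward and 3.9% downward. With 7 probe sets, 0 is near these shares. Cacnb1 encodes the beta subunit of skeletal muscle channels and has brain isoforms. Its probe set 1426108_s_at read 5.30, 5.09 and 5.54 in REST shRNA arrays 1, 2 and 3, against 5.40, 5.42 and 5.10 in the control shRNA arrays, a difference of 0.00 (95% interval -0.44 to 0.44). Probe set 1440940_at followed it over the arrays (Pearson r = 0.891, a description), with pair differences of 0.02, -0.37 and 0.77. The other 3 Cacnb1 probe sets differed by 0.02 to 0.14, and 1425777_at was below the bacterial mark on all 6 arrays.

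Cacnb4 encodes a beta subunit that is abundant in cerebellum, where its loss gives the lethargic mouse. Probe set 1452089_at read 5.13, 4.37 and 4.17 in REST shRNA arrays 1, 2 and 3, against 3.89, 5.07 and 4.97 in the control shRNA arrays. The pair differences were 1.24, -0.69 and -0.80, of both signs, around a difference of -0.08 (95% interval -1.002 to 0.84). With REST shRNA array 2 left out it was 0.01. Probe set 1428928_at had the same order of pairs (0.71, -0.18 and -0.53), and 1436912_at was below the bacterial mark on all 6 arrays.

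Of the other calcium channel subunits, 15 of 16 listed genes had 31 probe sets. Limma called 0 of them, and the median difference was 0.11. At an unadjusted p under 0.05, 2 were higher and 4 lower, against 1.54% and 1.93% of all probe sets. The 2 higher ones were both of Cacng2 and the 4 lower ones all of Cacna2d1. Cacng2 encodes stargazin, a protein of the gamma family known above all as a partner of AMPA receptors. Its probe set 1440210_at read 5.12, 6.06 and 6.23 in REST shRNA arrays 1, 2 and 3, against 3.24, 3.28 and 3.66 in the control shRNA arrays. The control arrays lay at or little above the bacterial mark of 3.24, and all REST shRNA arrays were above all control arrays. The 5.30-fold difference, 2.41 (95% interval 1.67 to 3.14, limma unadjusted p = 0.000121, adjusted p = 0.922), was the largest upward difference of all 45037 probe sets. With REST shRNA array 2 left out it was 2.28. A second Cacng2 probe set, 1420596_at, read 4.87, 4.73 and 5.40 in REST shRNA arrays, against 3.90, 3.80 and 4.26 in the control shRNA arrays, 1.01 higher, and a further one, 1453363_at, differed by 0.12.

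Cacna2d1 encodes the alpha2delta subunit that binds gabapentin and carries channels to the surface. All 5 of its probe sets were lower in all 3 pairs. The leading one, 1425861_x_at, read 4.15, 4.35 and 4.25 in REST shRNA arrays 1, 2 and 3, against 5.15, 5.08 and 4.88 in the control shRNA arrays, a difference of -0.78 (95% interval -1.15 to -0.42, limma unadjusted p = 0.00152, adjusted p = 1.00). Probe set 1449999_a_at averaged 6.95 ± 0.30 in REST shRNA arrays and 7.51 ± 0.14 in control shRNA arrays (SD, n = 3 each). It had a limma unadjusted p under 0.05 in 13 of 19 alternatives, and 1441608_at in 14 of 18. Cacna2d1 is also a subunit of muscle channels. The muscle marker list had no common direction, with 12 of 24 probe sets positive, a median of 0.02 and 10 of 14 genes above the bacterial mark. Within it the cardiac actin Actc1 differed by -1.56 at 1415927_at and the slow and cardiac myosin Myh7, named after its values were seen, by 2.31 at 1448553_at (95% interval 0.23 to 4.39), with groups apart in both. The part of muscle cells in the Cacna2d1 values was not tested.

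**Figure D5:**
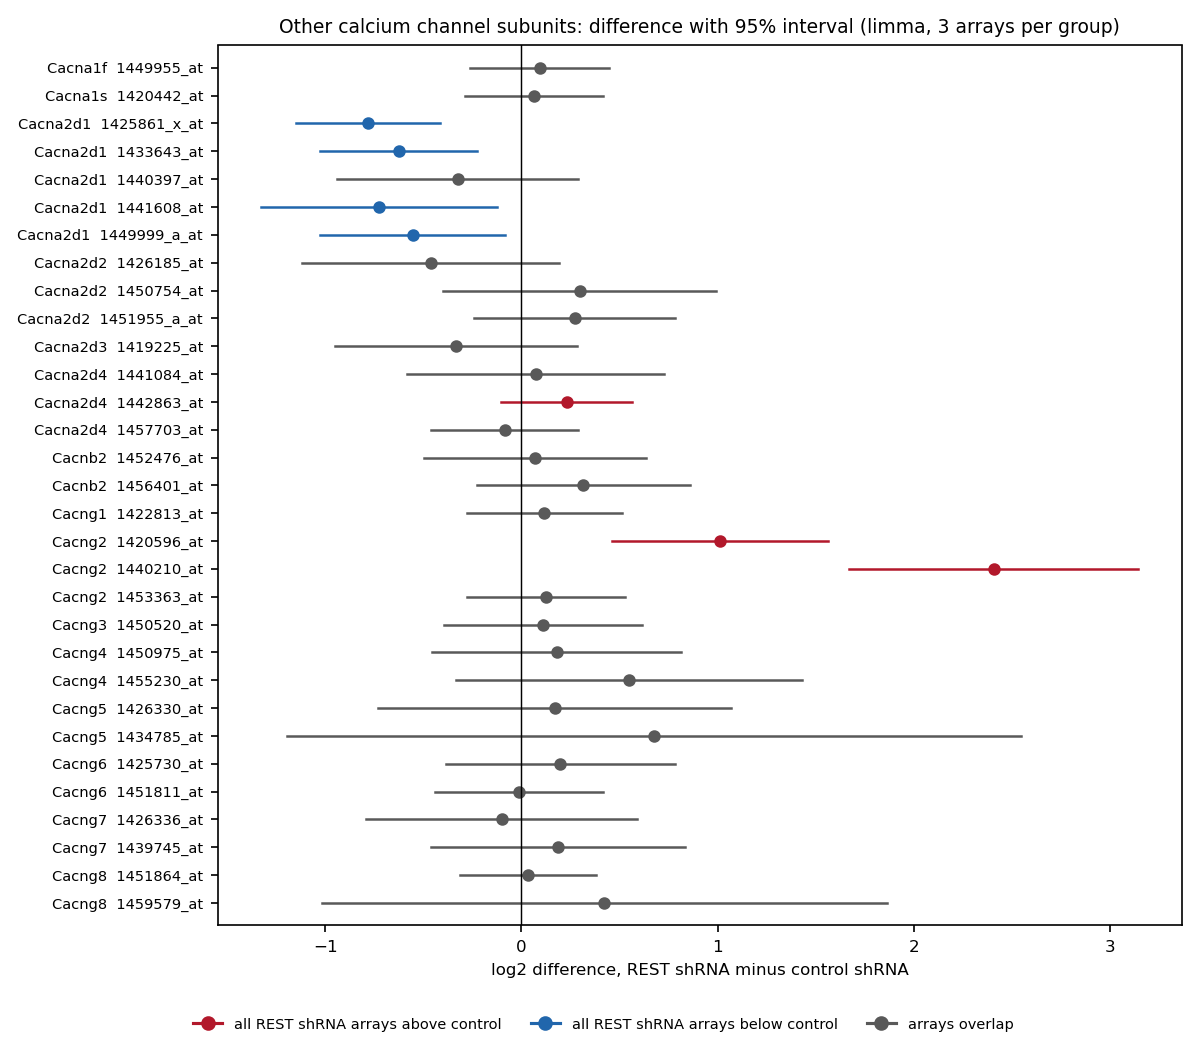
Difference in log2 signal, REST shRNA minus control shRNA, with its 95% interval from limma for 31 probe sets of the other calcium channel subunits, coloured where the 3 arrays of the groups did not overlap. Cacng2 1440210_at stands farthest out at 2.41, and 4 of the 5 Cacna2d1 intervals lie below 0.

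Regulators and partners of the channels, 25 probe sets for 15 of 19 listed genes, had 0 calls and a median of 0.18. At an unadjusted p under 0.05, 1 probe set was higher and 0 lower, against 1.54% and 1.93% of all probe sets. The higher one was of Rimbp2, which links presynaptic calcium channels to the release site. It read 6.31, 7.10 and 7.31 in REST shRNA arrays 1, 2 and 3, against 5.66, 5.87 and 6.40 in the control shRNA arrays, 0.93 higher (95% interval 0.18 to 1.68) with 1 overlapping pair of arrays. Rims2 1450761_s_at, an active zone scaffold that also binds these channels, differed by 0.36.

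The 5 genes whose pattern over the 6 arrays was most like Cacna1b 1460608_at, by Pearson correlation among named probe sets above background, were Ap3b2 (r = 0.991), Plxna2 (r = 0.990), Ankrd27 (r = 0.988), Mrps10 (r = 0.987) and Baiap2 (r = 0.985). These are descriptions over 6 points that fall into the 2 groups, so the group difference sets most of each value.

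Sodium channel alpha subunits, the other large voltage-gated pores of neurons, gave 24 probe sets for 8 of 10 listed genes. They had 0 calls and a median of 0.06. Of these 24, 10 had a mean above the bacterial mark, against 21 of the 24 member probe sets. At an unadjusted p under 0.05, 1 was higher and 0 lower, against 1.54% and 1.93% of all probe sets. The higher one, Scn2a 1427281_at, differed by 0.61 with a mean under the bacterial mark in both groups. Scn8a 1451894_a_at differed by 0.37 (95% interval -0.07 to 0.81).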

How the data were processed

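Biotin-labelled cDNA from total RNA was hybridised to 1-colour Affymetrix arrays, 3 per group, per the labels. The deposited values are log2 signals per probe set. Their range (1.00 to 14.2) and near-equal distributions show the scale, and the summary method is not given in the sources used here. Depth does not apply to arrays, and their number limits the precision. Genes come from the platform annotation: 34958 of 45101 probe sets had 1 gene, 932 several and 9211 were not listed, and 34754 matched RefSeq by gene number. The 64 control probe sets were left out.

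The difference, REST shRNA minus control shRNA, was fitted with limma 3.58.1 in R 4.3.3 (lmFit and eBayes, group as the sole term) over 45037 probe sets, with Benjamini-Hochberg adjustment and a threshold of 0.05. The procedure was tested on simulated data. Arrays with the same replicate number were taken as pairs, although the labels do not say that they are. Their deviations from the group means correlated at r = 0.117, 0.282 and 0.402, in the order of the numbers. The pairing was weak for number 1, where the best partner of the control array was REST shRNA array 2. A fit with the replicate block was an alternative. Other alternatives changed scaling, filters, variance model, array weights, probe sets per gene and arrays used. Named are all members, Rest, the 2 probe sets of smallest p per gene list and 5 genes by likeness. Also named are the other probe sets of Cacng2 and Cacna2d1, Myh7 and a further Acta2 probe set (these chosen after their values were seen). The neuron markers Nefl, Gap43, Tubb3, Map2 and Elavl4 were likewise named after their values were seen. The members and lists were chosen with earlier results of these data known. Protein sequences of the subunits were not analysed here.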

Additional observations from a re-analysis of the deposited data

How the results depend on the processing

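Limma called 0 probe sets under each of the 19 alternatives, with a smallest adjusted p of 0.374 (array weights), and the replicate block changed no call (844 higher and 1088 lower at an unadjusted p under 0.05). The difference of Cacna1b 1460608_at lay between 1.31 and 1.54 over its 18 alternatives. With 1 probe set per gene 8 of 9 members were positive and 1 was higher at an unadjusted p under 0.05, since fewer probe sets were counted. Of all 18193 probe sets in that setting 323 were higher at that mark, and their median difference was 0.04. With array weights 5 members were higher at that mark, as were 1318 of all 45037 probe sets, against 692 in the main fit. The cause was not tested. With arrays left out, the positive members numbered 16 to 23 and their median lay between 0.14 and 0.24. Differences that changed sign with arrays left out ranged as follows: Cacna1a 1430408_at -0.0010 to 0.19, Cacna1a 1444455_at -0.0045 to 0.62, Cacna1c 1421297_a_at -0.17 to 0.24, Cacna1c 1435730_at -0.11 to 0.069, Cacna1d 1427974_s_at -0.033 to 0.47, Cacna1e 1421692_at -0.012 to 0.90, Cacna1e 1436260_at -0.27 to 0.37, Cacna1h 1422710_a_at -0.024 to 0.67, Cacnb1 1425777_at -0.16 to 0.12, Cacnb1 1426108_s_at -0.22 to 0.17, Cacnb1 1440940_at -0.17 to 0.40, Cacnb1 1451834_at -0.060 to 0.14, Cacnb4 1428928_at -0.35 to 0.27, Cacnb4 1436912_at -0.37 to 0.15, Cacnb4 1452089_at -0.75 to 0.27, Cacng2 1453363_at -0.017 to 0.27. Other members kept their sign but moved by over 1.5 times: Cacna1a 1450510_a_at 0.057 to 0.41, Cacna1a 1459996_at 0.24 to 0.55, Cacna1b 1425812_a_at 0.12 to 0.55, Cacna1d 1428051_a_at 0.20 to 0.46, Cacna1g 1423365_at 0.058 to 0.45, Cacna1h 1427607_at 0.083 to 0.63. Probe sets of other genes moved as much, among them Cacna2d1 1440397_at (-0.52 to -0.13), Cacna2d1 1441608_at (-0.90 to -0.46) and Rest 1428227_at (-0.91 to -0.44). Cacna1c 1435730_at was 0.012 with each array centred on its median and 0.014 with array weights, Cacnb1 1426108_s_at -0.034 and Cacnb4 1452089_at 0.37 with array weights. The cause was not tested. Centring moved the median of all probe sets to 0.05. With 3 arrays per group, and 3 member probe sets not above the bacterial mark, moderate differences were not detectable.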

Other observations

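Of 25 neural progenitor probe sets 14 were negative, with a median of -0.15, and the leading ones were of Notch1 (-0.40) and Fabp7 (-0.40). Of 34 astrocyte probe sets 32 were negative, with a median of -0.37, led by Slc1a2 (-0.70) and Aldoc (-0.78). Of 28 oligodendrocyte lineage probe sets 20 were positive and 8 negative, with a median of 0.09. The leading ones were of Mobp, at 1.29 and at 1.89 (95% interval -0.53 to 4.31), with groups that overlapped in both. The mesenchymal median was 0.23, with Fn1 at -1.05 and Col1a1 at 0.42. In the endothelial list, with a median of 0.04, the leading probe sets were of Flt1 and lay under the bacterial mark on all 6 arrays. In the microglial list, with a median of 0.05, Aif1 was above the mark on 2 of 6 arrays and Cx3cr1 1450020_at, above it on 5, differed by 0.24. In the muscle list the second leading probe set, Acta2 1456658_at, lay under the mark on all 6 arrays. Acta2 1416454_s_at, above it on all 6 and named after its values were seen, read 3.55, 8.001 and 3.71 in REST shRNA arrays 1, 2 and 3, against 8.49, 8.40 and 4.07 in the control shRNA arrays, a difference of -1.90 (95% interval -5.63 to 1.83) with groups that overlapped.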
